A study of Pinus pinaster with 4 samples.

Results

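The contigs described here are 4 transcripts of maritime pine (Pinus pinaster) needles that are described as transporters, 3 of them with a substrate (nitrate or peptides, anions, or drugs and metabolites). They were taken by identifier from the deposited table of 17571 contigs, and all 4 had a row. Their names come from the array annotation that accompanies the study: sp_v3.0_unigene42268, a putative peptide/nitrate transporter, sp_v3.0_unigene35043, a probable anion transporter 4, sp_v3.0_unigene8021, a drug/metabolite transporter (DMT) superfamily permease, and sp_v3.0_unigene10250, a putative transporter with no substrate in its name. The 4 were picked with their RNA-Seq differences between the provenances known, so those differences are given as a description, with no test.

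Needles were sampled from plants L6 and L7 of Leiria, a provenance from near the coast of Portugal, and T3 and T6 of Tamrabta, a provenance from the Atlas mountains of Morocco, with 1 RNA-Seq library for each plant. All plants were rooted cuttings of a clonal collection, potted at 17 months of age, raised in the same greenhouse in northern Spain, fed with the irrigation water and pruned before sampling, and all needles were harvested at the same time. No agent or stress was applied to either provenance. The sources do not say whether both plants of a provenance were the same clone, so the spread between them may hold little or much of the variation within a provenance.

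Nitrate taken up by roots can be reduced there or carried to leaves, where it is reduced in the cytosol and chloroplast and built into amino acids. Transporters of the NRT1/PTR family (NPF), to which the first contig belongs by its Arabidopsis match, move nitrate, peptides, hormones or other small molecules across membranes with protons. The match of the anion transporter, PHT4;3 of Arabidopsis, belongs to a family that carries inorganic phosphate and, for some members, other anions. The drug/metabolite transporter superfamily includes the plant MtN21-like (UMAMIT) proteins, to which the Arabidopsis match of the permease belongs, and in Arabidopsis several of these export amino acids. These roles are known from Arabidopsis and were not measured in pine.

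The name of sp_v3.0_unigene10250 rests on a match to a Ricinus protein described as a transporter. The Arabidopsis locus paired with the same contig, AT5G55660.1, is annotated in that species as a DEK domain protein of chromatin and not as a transporter. The names differ in kind, and no sequence was at hand to settle which describes the contig. The loci paired with the other 3 contigs, AT3G54450.1, AT3G46980.3 and AT1G21890.1, are annotated as transporters.

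The recovered counts totalled between 40019608 and 58835449 in a library. The deposited values are counts scaled to a common library size (CPM) and corrected with TMM factors for the composition of each library, and 3 counts corresponded to between 0.0513 and 0.0825 CPM. Contig lengths were not at hand, so levels are compared between libraries and not between contigs. Of 11 photosynthesis transcripts listed as markers of needles, 4 had a row, and none of the 4 was at 0 in any library. Their summed level was 6821 CPM in L6, 5099.6 CPM in L7, 3912 CPM in T3 and 3003 CPM in T6. It was lower in both Tamrabta libraries than in both Leiria libraries and lowest in T6. The array annotation rows that describe the 4 were those with the lowest array p on RNA that included these plants. The direction of the sum is therefore not independent evidence, and its part in the differences below was not tested. In bulk needles, fewer cells of a type cannot be told apart from less RNA per cell.

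The putative peptide/nitrate transporter was higher in both Tamrabta plants. L6 had 10.9 CPM and L7 13.7 CPM, from 397 and 802 counts. T3 had 27.7 CPM and T6 56.7 CPM, from 1397 and 2551 counts. The Leiria plants lay close together, T3 lay between them and T6, and the lower Tamrabta plant had 2.02 times the level of the higher Leiria plant. The Leiria mean was 12.3 ± 1.98 CPM (SD, n = 2) and the Tamrabta mean 42.2 ± 20.5 CPM (SD, n = 2), a ratio of 3.43. The fold change (logFC, on the log2(CPM + 0.5) scale, the Leiria mean minus the Tamrabta mean) was -1.66 with a standard error of 0.39. Among all pairs of a Leiria and a Tamrabta plant the log2 difference ran from -2.33 to -0.99.

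The probable anion transporter 4 was low in 3 of the 4 plants and high in the other. L6 had 2.67 CPM and L7 1.88 CPM, from 97 and 110 counts. T3 had 3.80 CPM and T6 18.2 CPM, from 192 and 817 counts. The provenances did not overlap, but T3 sat close to L6 and L7 and far below T6. T3 had 1.43 times the level of L6, and counting error alone put T3 between 3.29 and 4.38 CPM and L6 between 2.16 and 3.25 CPM (exact Poisson 95% intervals). The Leiria mean was 2.27 ± 0.556 CPM (SD, n = 2) and the Tamrabta mean 11.0 ± 10.2 CPM (SD, n = 2). The logFC was -1.71 with a standard error of 0.75. Without T6 it was -0.65, and without T3 it was -2.77.

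The drug/metabolite superfamily permease was higher in both Leiria plants. L6 had 19.5 CPM and L7 16.4 CPM, from 710 and 962 counts. T3 had 7.47 CPM and T6 10.8 CPM, from 377 and 486 counts. L7, the lower Leiria plant, had 1.52 times the level of T6, the higher Tamrabta plant. The Leiria mean was 18.0 ± 2.17 CPM (SD, n = 2) and the Tamrabta mean 9.14 ± 2.36 CPM (SD, n = 2), a ratio of 1.97. The logFC was 0.96 with a standard error of 0.25.

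The contig described as a putative transporter had like levels in both provenances. L6 had 90.3 CPM and L7 101 CPM, from 3284 and 5925 counts. T3 had 106 CPM and T6 81.1 CPM, from 5339 and 3649 counts. Both the highest and the lowest value came from Tamrabta, with the Leiria plants between them. The Leiria mean was 95.8 ± 7.79 CPM (SD, n = 2) and the Tamrabta mean 93.5 ± 17.4 CPM (SD, n = 2). The logFC was 0.045 with a standard error of 0.20, and it turned negative without L7, at -0.037, and without T6, at -0.14. It was also negative, at -0.10, when each library was summed to 1000000, which shifted the median over all contigs from 0.011 to -0.13. Relative to that median the contig's logFC was then 0.022.

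**Figure D1:**
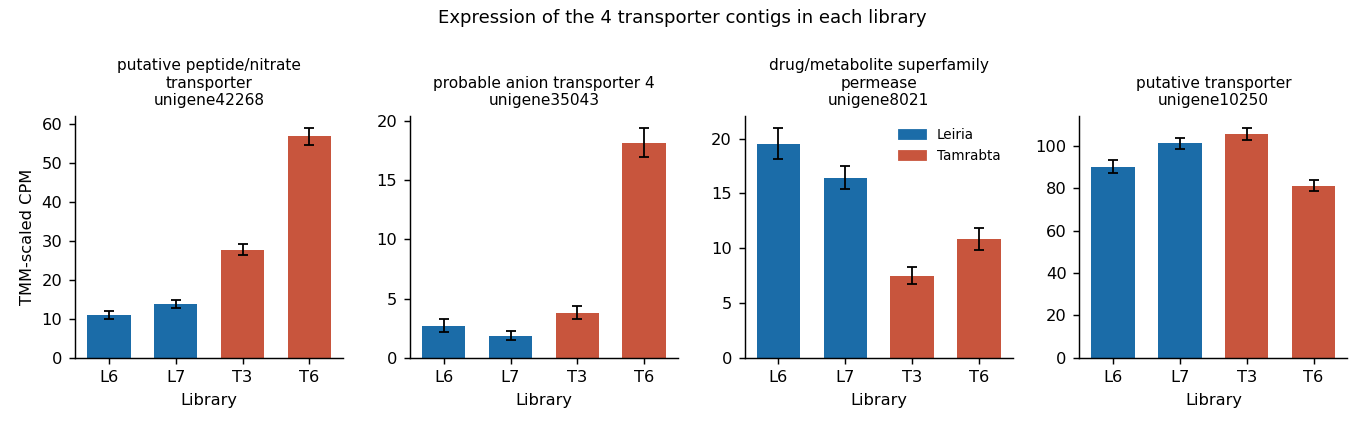
TMM-scaled CPM (vertical axis, a separate scale starting at 0 in each panel) of the 4 contigs in the libraries L6 and L7 of Leiria (blue) and T3 and T6 of Tamrabta (red), with exact Poisson 95% intervals that cover counting error only. T6 stands above the other libraries for the peptide/nitrate transporter and the anion transporter, at 56.7 and 18.2 CPM, while the provenances overlap for the putative transporter.

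For 3 of the 4 contigs both plants of a provenance lay above both plants of the other, 2 of them with the higher values in Tamrabta and 1 in Leiria. Over all contigs, 49% did not overlap, with higher values in Tamrabta for 23.9% and in Leiria for 25.1%. Since the contigs were picked on this contrast, nothing is read from their count.

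The plants of each provenance also differed from each other. The p-values behind the choice of contigs depend on that spread, so it is described with counting error only. In Tamrabta the anion transporter had 4.77 times the level in T6 that it had in T3 (exact binomial 95% interval 4.08 to 5.62, counting error only), and the peptide/nitrate transporter 2.05 times (1.92 to 2.19). Of 16362 contigs with a mean of at least 1 CPM, 2.12% had a larger absolute log2 difference between T3 and T6 than the anion transporter and 10.0% a larger one than the peptide/nitrate transporter. The permease was also higher in T6, by 1.45 times (1.26 to 1.66), and 29.1% of contigs differed more. The putative transporter went the other way and was 1.30 times higher in T3 (1.25 to 1.36), with 40.5% of contigs differing more. Thus 3 of the 4 were higher in T6 than in T3, as were 49.8% of the table.

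The Leiria plants differed less. L7 had 1.26 times the level of L6 for the peptide/nitrate transporter (1.11 to 1.42) and 1.12 times for the putative transporter (1.07 to 1.17). L6 had 1.42 times the level of L7 for the anion transporter (1.07 to 1.88) and 1.19 times for the permease (1.08 to 1.31). For each of the 4 contigs the absolute log2 difference was smaller in the Leiria pair than in the Tamrabta pair. The same order held for the medians of the 16362 contigs, 0.20 in Leiria and 0.30 in Tamrabta.

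For the anion transporter the difference of 2.12 on the log2 scale between T3 and T6 was larger than its logFC of -1.71 between the provenances. For the other 2 contigs whose provenances did not overlap, the difference within each pair of plants was smaller than the logFC. The biological coefficient of variation that edgeR estimates for each contig, with information shared over the table, was 0.462 for the anion transporter, against a common value of 0.342, and 7.85% of contigs had a larger one. It was 0.312 for the peptide/nitrate transporter, 0.326 for the permease and 0.225 for the putative transporter.

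**Figure D2:**
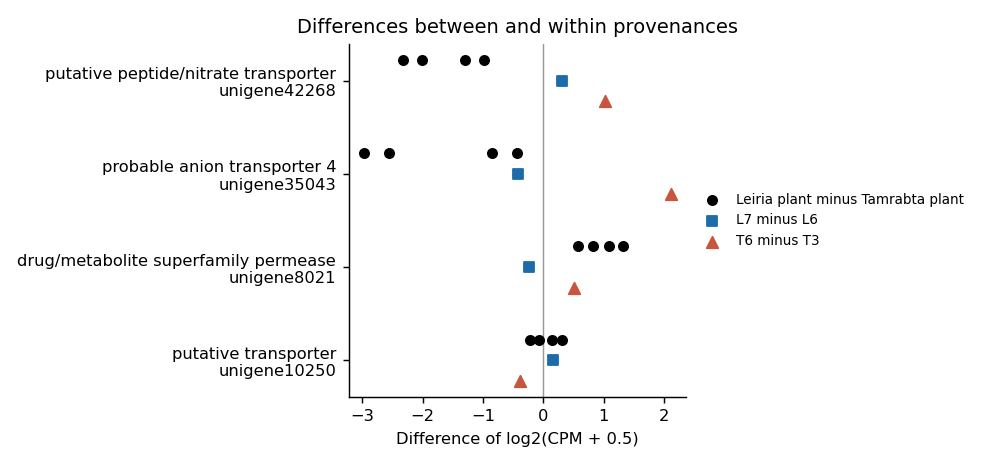
Differences of log2(CPM + 0.5) (horizontal axis) for the 4 contigs: black points are the 4 pairs of a Leiria plant minus a Tamrabta plant, blue squares L7 minus L6 and red triangles T6 minus T3. For the anion transporter the triangle stands at 2.12 and the black points run from -2.97 to -0.44, while for the permease the black points run from 0.58 to 1.33.

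Related contigs were taken from the same array annotation and sorted by the substrate or family in their descriptions. Besides contigs described as transporters, carriers or channels the lists hold ferredoxin-nitrite reductase, an enzyme of nitrate assimilation. A description as a transporter does not settle that role, as for sp_v3.0_unigene10250 and for the ABC proteins of subfamily F, sp_v3.0_unigene99931 and sp_v3.0_unigene7485. These rows are the part of that annotation at hand, those with the lowest array p on RNA that included the same 4 plants, so the lists were preselected for a difference and their directions are not independent evidence. Of 67 contigs listed, 38 were present in the RNA-Seq data.

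The logFC was negative, toward Tamrabta, for 28 of the 38, or 73.7%, and positive for 10. It was negative for 48.8% of the table and for 52.6% of the 1036 contigs of the table that the same annotation rows describe. The median was -0.49, against 0.011 over the table and -0.040 over those 1036 contigs. With each library summed to 1000000 the split was 32 and 6, while the share of the table toward Tamrabta rose to 62.8%. After quantile normalization it was 30 and 8, with 55.1% of the table toward Tamrabta. Without the 4 contigs described above it was 26 and 8 of 34, and without nitrite reductase, a choice made after seeing the data, 27 and 10 of 37.

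Contigs were called where the Benjamini-Hochberg adjusted p was under 0.05 and logFC exceeded 1 in size. Without the described contigs limma called 0 of 34, and 0.154% of the table. An unadjusted p under 0.05 from limma was found for 12 of the 34, or 35.3%, close to the 37.2% of the 1036 contigs of the same annotation rows and above the 14.7% of the table. The exact test of edgeR on the recovered counts, the test used in the study, called 4 of the 34, or 11.8%, all higher in Tamrabta. It called 14.8% of the 1036 contigs and 5.99% of the table, 2.49% toward Tamrabta. DESeq2 also called 4 of the 34, against 170 of the 1036 contigs and 6.19% of the table. The quasi-likelihood test of edgeR called 0 of the 34 and 0.0114% of the table. For 2 plants against 2, the smallest two-sided p of an exact permutation test is 0.333.

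In the nitrate and peptide list all 5 contigs with a row, 4 transport proteins and nitrite reductase, had a negative logFC. The lowest was that of sp_v3.0_unigene30176, a component of the high-affinity nitrate transport system that matches Arabidopsis NRT3.1, a partner protein that high-affinity nitrate transporters need. L6 had 2.78 CPM and L7 6.48 CPM, while T3 had 18.3 CPM and T6 23.8 CPM. Both Tamrabta plants were well above both Leiria plants, and the logFC was -2.16 ± 0.42 (standard error). Limma gave an adjusted p of 0.158 and the edgeR exact test an FDR of 0.00294. A peptide transporter of the NPF family, sp_v3.0_unigene29177, had 22.1 and 32.6 CPM in L6 and L7 and 33.6 and 67.7 CPM in T3 and T6. As for sp_v3.0_unigene42268 T6 was the highest library, but T3 barely exceeded L7, and neither limma nor the exact test called it. The oligopeptide transporter sp_v3.0_unigene394, whose Arabidopsis match OPT3 carries iron in the phloem, overlapped between the provenances, with a logFC of -0.23. Ferredoxin-nitrite reductase (sp_v3.0_unigene74607), the chloroplast enzyme that reduces nitrite to ammonium, lay between 1.15 and 1.74 CPM in all 4 libraries, with a logFC of -0.27 (standard error 0.24).

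Of the anion list, 3 of 5 contigs had a row. The permease sp_v3.0_unigene8696 belongs to the PHT4 family by its Arabidopsis match, like the anion transporter, and that match carries ascorbate into chloroplasts. It overlapped between the provenances, with values from 261 CPM in L6 to 304 CPM in L7 and a logFC of 0.034, well within its standard error of 0.17. A contig described as similar to a bile acid:sodium symporter, sp_v3.0_unigene40688, had 23.0 and 21.1 CPM in L6 and L7 and 38.6 and 29.4 CPM in T3 and T6. Its Tamrabta values were higher, as for the anion transporter, but here T3 and not T6 was the highest library.

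In the drug/metabolite superfamily list all 5 contigs had a row, and the signs were mixed. The permease sp_v3.0_unigene8021 had the highest logFC of the 38 contigs. The other contig whose Leiria values both exceeded the Tamrabta values was sp_v3.0_unigene7242, described as a transporter like the chloroquine-resistance protein, with 46.9 and 37.9 CPM in L6 and L7 against 27.5 and 32.9 CPM in T3 and T6. The MtN21-like contig sp_v3.0_unigene895 had 3.68, 3.73 and 3.72 CPM in L6, L7 and T3 and 6.25 CPM in T6, so that 3 plants were level and T6 stood above them. A UDP-galactose transporter (sp_v3.0_unigene16463) had a logFC of -0.76, and a nucleotide-sugar transporter (sp_v3.0_unigene8347) overlapped, with a logFC of 0.17. These other 4 contigs passed in neither limma nor the exact test.

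Besides sp_v3.0_unigene10250, the list without a named substrate held 4 contigs with a row, and in all 4 both Tamrabta values exceeded both Leiria values, as they did for 23.9% of the table and 36.9% of the contigs of the same annotation rows. Its other contig with the same bare description of a putative transporter, sp_v3.0_unigene3180, had 10.6 CPM in both Leiria plants and 17.4 and 22.7 CPM in T3 and T6. For sp_v3.0_unigene23086, an integral membrane transporter, the values were 17.2 and 14.4 CPM in L6 and L7 and 30.4 and 29.2 CPM in T3 and T6. The major facilitator proteins sp_v3.0_unigene39427 and sp_v3.0_unigene9535 had a logFC of -1.01 and -0.44. These 4 were called by neither limma nor the exact test.

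In the other lists the contig with the largest absolute logFC was named. Among efflux proteins of the MATE family it was sp_v3.0_unigene18734, where Leiria had 168 ± 4.47 CPM (SD, n = 2) and Tamrabta 472 ± 54.1 CPM (SD, n = 2). The logFC was -1.48 ± 0.17 (standard error), and its adjusted p was 0.0943 in limma and its FDR 0.000155 in the exact test. Plants of a provenance differed little for it, unlike for the anion transporter. Among organelle carriers it was sp_v3.0_unigene6157, described as a mitochondrial FAD carrier from a match to melon, with a logFC of -1.64 ± 0.35 (standard error). Limma gave it an adjusted p of 0.181 and the exact test an FDR of 0.000821. Among metals, cations and channels it was glutamate receptor 3.3 (sp_v3.0_unigene12476), a ligand-gated channel, with a logFC of -1.03. Among amino acid transporters it was the lysine histidine transporter-like sp_v3.0_unigene34055, with a logFC of 0.79 and overlapping values, since T3 had 53.4 CPM and T6 133 CPM. Among ABC transporters it was sp_v3.0_unigene99931, which matches an ABC protein of subfamily F, a group with no membrane-spanning domain, with a logFC of -0.40 and overlapping values. None of the 4 sugar transporters listed had a row.

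**Figure D3:**
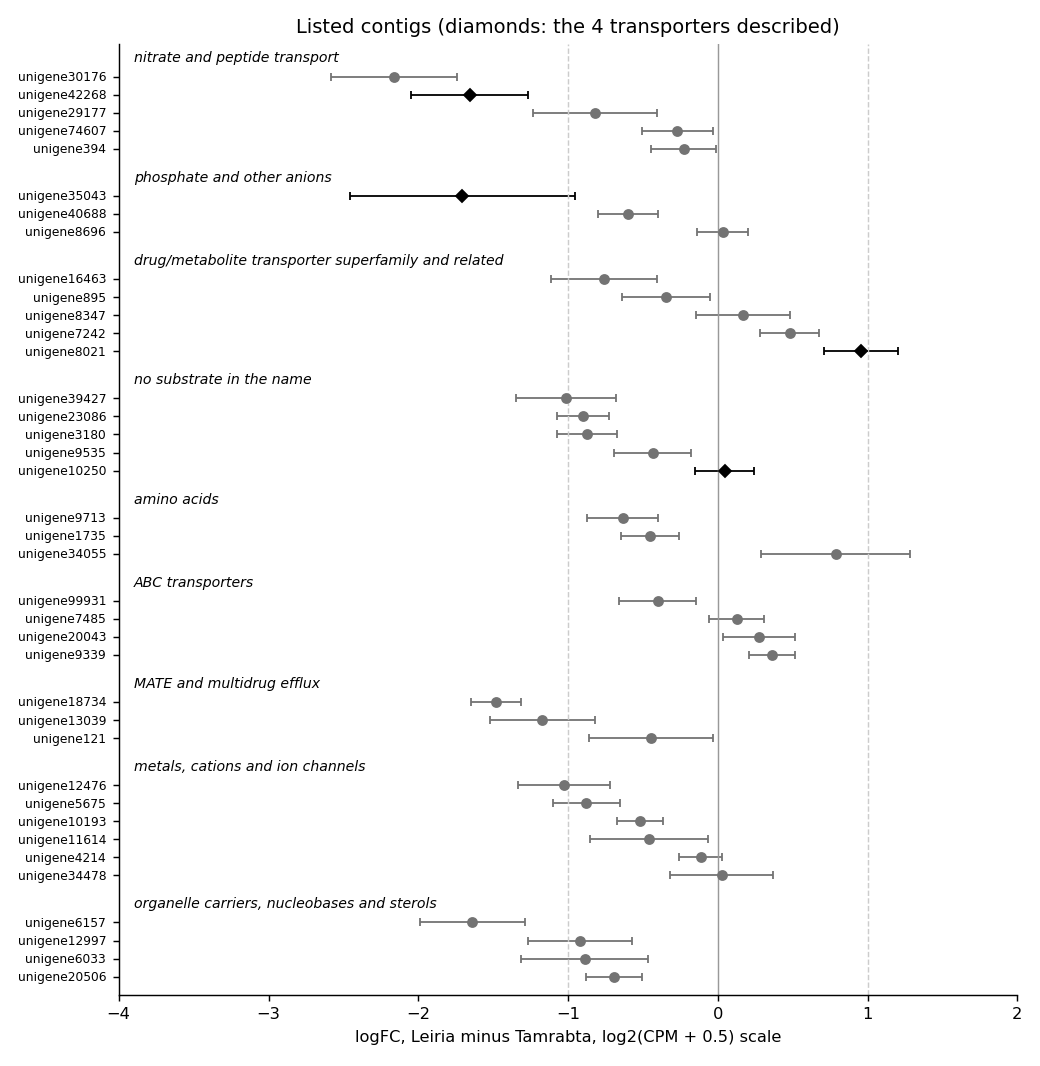
logFC (horizontal axis, log2(CPM + 0.5) scale, positive toward Leiria) of the 38 listed contigs with a row, by list, with bars of 1 standard error from limma. Diamonds are the 4 contigs described in full, circles the other 34, and dashed lines mark -1 and 1; 28 of the 38 points lie left of 0, and the permease sp_v3.0_unigene8021 lies farthest to the right at 0.96.

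T6 was the highest library for 21 of the 38 listed contigs, or 55.3%, for 19 of the 34 without the described contigs and for 21 of the 37 without nitrite reductase. Over the table T6 was the highest library for 29.5% of contigs, and over the 1036 contigs described in the same annotation rows for 32.6%. The median log2 difference of T6 minus T3 was 0.36 over the 34 contigs and -0.00029 over the table. Without T6 the 34 contigs were still split as 27 toward Tamrabta and 7 toward Leiria, with a median logFC of -0.37, and without T3 the split was the same, with a median of -0.65.

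The contigs whose profiles over the 4 libraries were most like those of the described transporters were found by the root mean square difference of log2(CPM + 0.5), each profile centred on its mean, among 16361 other contigs with a mean of at least 1 CPM. With 4 libraries a close match is easily found, and the distances are a description. For the peptide/nitrate transporter 3 contigs lay within 0.1, and for the anion transporter 1. For the permease 28 did, and for the nearly level putative transporter 873 did. The nearest contig to the peptide/nitrate transporter was sp_v3.0_unigene22361, at a distance of 0.059 and with no class in the annotation. That contig had only 0.247 and 0.359 CPM in L6 and L7 and 1.19 and 2.87 CPM in T3 and T6. Adding 0.5 CPM shrinks the ratios between such low values, so the small distance does not mean like fold differences. The nearest with a description was sp_v3.0_unigene10458, a quinolinate synthase of NAD synthesis, at 0.12. It had 17.1 and 24.9 CPM in L6 and L7 and 45.2 and 108 CPM in T3 and T6, the same order of plants.

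Nearest to the anion transporter was sp_v3.0_unigene17509, at 0.095, with 80.1 and 62.7 CPM in L6 and L7 and 130 and 491 CPM in T3 and T6. The nearest described contig, sp_v3.0_unigene6613 at 0.12, is named only by a DUF607 domain and had 18.7 CPM in T6 against 2.38 to 3.71 CPM in the other libraries. For both, as for the anion transporter, T6 alone was far above the rest. Nearest to the permease were sp_v3.0_unigene47862, at 0.026, and, among described contigs, the putative transferase sp_v3.0_unigene6692, at 0.059. Nearest to the putative transporter were sp_v3.0_unigene3832, at 0.0071, and a chloroplastic phosphoribosylglycinamide formyltransferase of purine synthesis (sp_v3.0_unigene29292), at 0.023. Among the described transporters themselves the closest pair was the peptide/nitrate transporter and the anion transporter, at 0.47, and the farthest was the anion transporter and the permease, at 1.45.

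**Figure D4:**
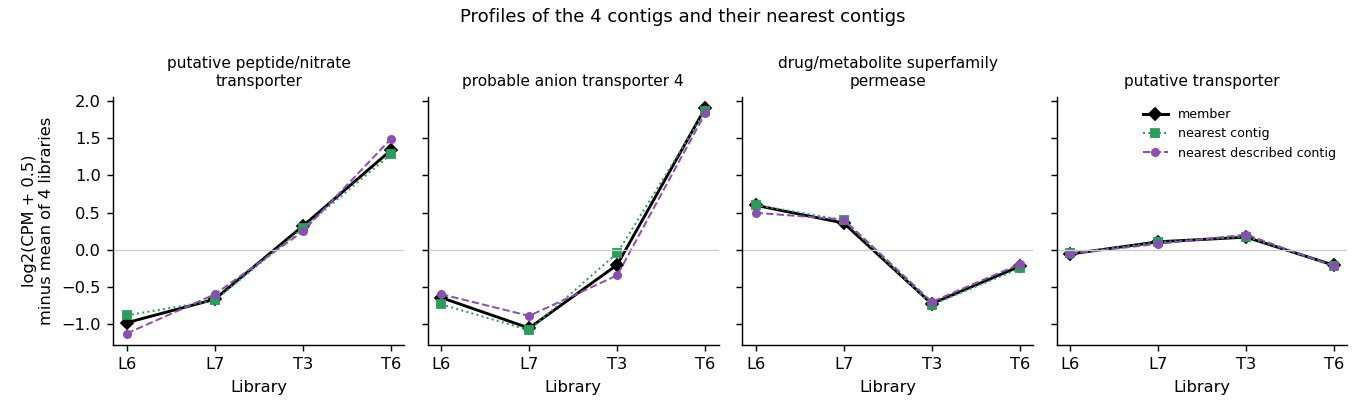
log2(CPM + 0.5) minus its mean over the 4 libraries (vertical axis) for each described contig (black diamonds), its nearest contig (green squares) and its nearest contig with a description (purple circles); lines only join the libraries, which are separate plants. The nearest contigs lie within 0.095 of their transporter, and the peak in T6 is shared in the first and second panels. In the first panel the nearest contig is at 0.247 to 2.87 CPM, where adding 0.5 shrinks its ratios.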

How the data were processed

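RNA-Seq libraries of needles from 2 Leiria and 2 Tamrabta plants were analysed. Per the study's methods, the authors trimmed paired reads with SeqTrimNext, mapped them with Bowtie2 onto SustainPineDB v3.0 contigs as concordant pairs, counted them and deposited a signal per contig in each library, namely TMM-scaled CPM from edgeR. The sources used here do not give tool versions, use of strand or the treatment of pairs that fit several contigs, so similar contigs could share counts. The authors' script filters at CPM over 1 in 2 libraries, which 94.4% of deposited rows met. In every column all values were whole multiples of the CPM of 1 count, and 100% of 70284 values came out as whole counts within 0.01.

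Provenances were compared with limma 3.58.1 (R 4.3.3) on log2(CPM + 0.5), with a trended prior and no covariate, adjusting over 17571 contigs by Benjamini-Hochberg. Because the values are not counts, edgeR 4.0.16 (exact and quasi-likelihood tests) and DESeq2 1.42.0 were alternatives on recovered counts. The other alternatives changed the pseudocount (0.1 or 1), required a mean of 5 CPM, dropped the trend, rescaled libraries (sum of 1000000, or quantiles), blocked on the replicate number, or left out a library. The steps were tested on simulated data. Intervals and floors of 3 counts cover counting error only.

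The contigs, lists and tests were chosen with earlier results of these data known. Besides the 4 transporters, the contigs sharing a list with them, the largest absolute logFC of each other list, and the nearest contig and nearest described contig to each transporter were named. Names came from the 1791 annotation rows at hand, of which 1036 had a row in the table.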

Additional observations from a re-analysis of the deposited data

How the results depend on the processing

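Under all 14 alternatives the logFC of the peptide/nitrate transporter and of the anion transporter stayed negative and that of the permease stayed positive. Where the provenances do not overlap, leaving out a library cannot turn the direction. With all libraries the logFC lay between -1.80 and -1.62, between -2.29 and -1.56, and between 0.81 and 0.99 for the 3 contigs. With 1 library left out it lay between -2.17 and -1.15, between -2.77 and -0.65, and between 0.70 and 1.21. For the putative transporter it lay between -0.14 and 0.24 with 1 library left out and was -0.10 with each library summed to 1000000. Leaving out L7 gave -0.037 and leaving out T6 gave -0.14. Limma called 27 contigs of the table, 19 higher in Leiria and 8 in Tamrabta, and 11 and 8 after quantile normalization. Calls numbered 1053 in the exact test, 1088 in DESeq2, 2 in the quasi-likelihood test, 5 at a mean CPM of at least 5 and 17 with a pseudocount of 1. With the replicate number as a block limma called 9. The 2 numbers only label the plants, and over 16362 contigs the differences between replicates 1 and 2 in the provenances had a correlation of 0.21. Calls ranged from 0 (without L6, L7 or T3) to 32 (without T6) when 1 library was left out. Such fits leave 1 library in a provenance, which is assumed to vary like the other. The 38 listed contigs include the 4 described ones, which were picked on this contrast, so nothing is read from calls over all 38. Without the 4 described contigs, the exact test and DESeq2 each called 4 of 34. In the exact test that was 11.8%, against 14.8% of the 1036 contigs of the same annotation rows. DESeq2 called 170 of those 1036. Calls among the 38 listed contigs were 6 in the exact test and 6 in DESeq2 in place of 0. They were 0 in the other 13 alternatives, among them the replicate block and leaving out nitrite reductase, which was added after seeing the data. Among the 4 transporters depth limits the anion transporter most, with 97 counts in L6.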
